A study of Mus musculus with 3 samples.

Results

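The 46 genes described here encode the Bcl2 family, the caspases, the inhibitor of apoptosis proteins and the core kinases and pore proteins of necroptosis and pyroptosis. They were taken from a table of 47480 symbols by a rule on the symbol alone, though chosen with earlier results of these data known. Every one of the 46 had a row in each of the 3 libraries. The libraries came from 3 mammary tumours of the FVB-MMTV-Neu strain, in which a viral (MMTV) promoter active mainly in mammary epithelium drives the Neu oncogene. Per the labels, tumours were placed orthotopically in syngeneic hosts, grew to a diameter of 5 mm and were followed for 7 more days with no treatment, while the series' short design text speaks of tumours of untreated MMTV-Neu mice. All 3 samples form 1 group, so there is no control or treated group to compare, and it is not said whether the tumours came from separate donor animals. They are called tumours 1, 2 and 3 in the order of their accessions.

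Apoptosis through mitochondria is set off when Bax and Bak, which open pores in the outer membrane, escape restraint by pro-survival proteins such as Bcl2, Bcl-xL and Mcl1. BH3-only proteins start this by binding the pro-survival proteins or the pore formers. Released cytochrome c then assembles Apaf1 into the apoptosome, which activates the initiator Casp9 and through it further caspases, while Xiap and its relatives hold caspases in check. In the mammary gland this machinery carries out the removal of the milk-producing epithelium after weaning.

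Libraries differed in depth and in tissue content. Total estimated counts were 47449153, 11388769 and 17147394 in tumours 1, 2 and 3, and the 46 genes took 0.161, 0.105 and 0.137% of them. Of 46 genes, 39 passed the expression filter, which asks every tumour for the share of reads that 10 counts make in the library of median size. Levels are in CPM, the count as a share of the library total after scaling, times 1000000. Tumour 1 was read in lane 1 and both others in lane 5, per the file headers, so lane and tumour 1 cannot be told apart. Mammary epithelial markers were present in all 3 tumours (summed 1577, 1391 and 2011 CPM over 6 genes). Tumour 1 was at least 4-fold above both others in 4 of 4 basal epithelial markers (summed 495.5 CPM against 40.6 and 51.5). It was almost free of skeletal muscle markers (1.66 CPM over 5 genes against 44130 and 18480). Its sums of leukocyte markers (139 against 1338 and 815 CPM over 4 genes) and macrophage markers (327 against 2926 and 1740 CPM over 5 genes) were lower. In tumours 2 and 3, Coro1a (33.5, 867 and 460 CPM in tumours 1, 2 and 3) and C1qa (160.8, 2426 and 1369 CPM) made up most of these sums. The macrophage markers Cd68 (24.5, 18.3 and 22.8 CPM) and Adgre1 (13.8, 11.6 and 11.95 CPM) were highest in tumour 1. The part of these differences in the results below was not tested. In bulk tissue, fewer cells of a type and less RNA per cell cannot be told apart.

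As a set, the apoptosis genes varied about as much as other genes. The median standard deviation of log2 CPM over the tumours was 0.65 for the 39 genes, compared with 0.72 over all 12710 genes past the filter. Tumour 1 was at least 4-fold above both other tumours for 2 of 39 (5.13%; 6.05% of all genes) and at least 4-fold below both for 1 of 39 (2.56%; 8.21% of all genes). At 2-fold the counts were 8 above (20.5%; 22.1% of all genes) and 7 below (17.9%; 20.7% of all genes). No gene of the set lay 4-fold above or below both others in tumour 2 (0.252 and 0.59% of all genes) or in tumour 3 (0.0787% in either direction). Between its extremes a gene spanned 4-fold or more in 8 of 39 cases (20.5%; 29.5% of all genes). Tumour 1 was the highest of the 3 for 18 genes (46.2%; 47.1% of all genes) and the lowest for 16 (41%; 41.6% of all genes), and tumour 3 exceeded tumour 2 for 22 (56.4%; 51.6% of all genes). The counts of 37 of the 39 differed between libraries beyond counting noise in a chi-square test with Benjamini-Hochberg adjustment over all genes, as did 94.2% of all genes. That test compares libraries and not conditions.

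**Figure D1:**
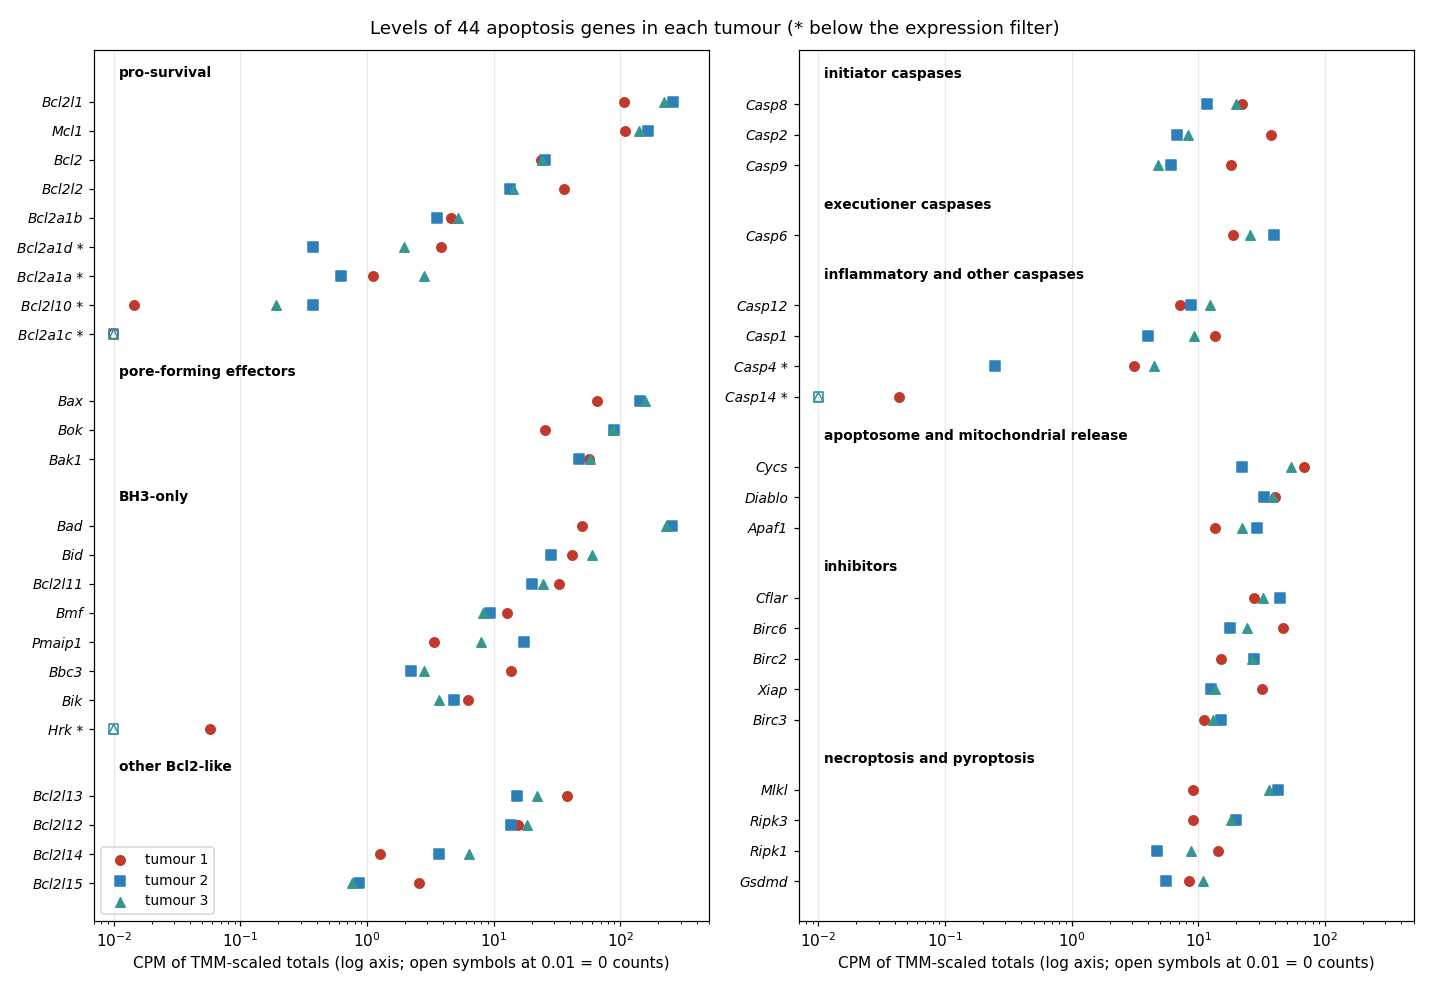
Level of 44 of the 46 genes in tumours 1 (circles), 2 (squares) and 3 (triangles), in CPM on a log axis, grouped by role; open symbols stand for 0 counts. Bcl2l1, Mcl1, Bax and Bad reach 100 CPM or more in at least 1 tumour, while Bcl2a1c, Bcl2l10, Hrk and Casp14 have at most 4 counts in any library.

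The direction of these differences depends on how libraries are scaled. With library totals alone, without the TMM factors, the median difference of tumour 1 over all genes moved by 0.84 on the log2 scale, and 8 genes changed the sign of their difference: Cflar, Bcl2, Mcl1, Casp6, Bcl2l12, Casp12, Birc2 and Birc3. This scaling multiplies the CPM values of tumours 1, 2 and 3 by 1.48, 0.722 and 0.936, so that genes lower in tumour 1 come closer to the others. Of the 39 genes, 7 (17.9%; 16.2% of all genes) were then 4-fold above in tumour 1 and 0 below (3.6% of all genes). A correction for transcript composition also moved the values. After removal of the trend with GC content and transcript length over all genes, 1 gene (Bbc3) was 4-fold above (2.56%; 5.48% of all genes) and 0 below (6.38% of all genes), and the sign changed for Bcl2l11, Bcl2l12 and Bax.

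**Figure D2:**
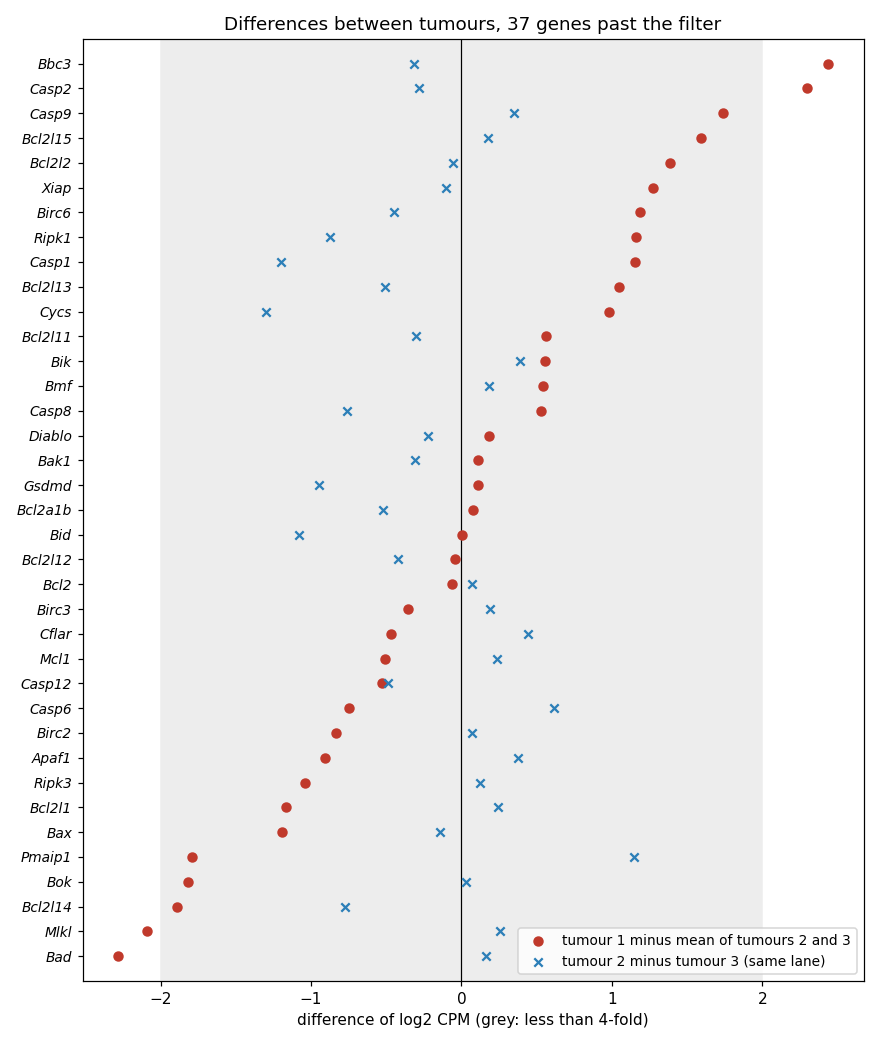
Difference of log2 CPM for 37 of the 39 genes past the filter, as tumour 1 minus the mean of tumours 2 and 3 (circles) and as tumour 2 minus tumour 3 within lane 5 (crosses), with the range below 4-fold in grey. Bbc3 and Casp2 lie beyond 2 on the right and Bad and Mlkl beyond -2 on the left, of which Mlkl was not 4-fold from tumour 3 singly; no cross leaves the grey range.

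The pro-survival genes were led by Bcl2l1, which encodes Bcl-xL, and by Mcl1, a short-lived guardian of Bak. Bcl2l1 (GRCm38 build, as all positions given; chromosome 2, 152780668 to 152831728) was at 107, 262 and 221 CPM in tumours 1, 2 and 3. Tumour 1 was thus lowest, by 2.45-fold against tumour 2 and 2.06-fold against tumour 3, and tumours 2 and 3 were close. With library totals alone Bcl2l1 was at 159, 189 and 207 CPM, and its difference of −1.17 on the log2 scale became −0.32, or −0.66 without the GC and length trend. Mcl1 (chromosome 3, 95658788 to 95663176) was at 108, 167 and 142 CPM. It varied less than Bcl2l1, and its order turned with library totals alone (160, 121 and 133 CPM). Bcl2 itself (chromosome 1, 106538178 to 106714274), the founding member, was at 23.6, 25.2 and 24.0 CPM, or 24.3 ± 0.855 CPM (SD, n = 3). It was 1 of the 2 genes that did not pass the chi-square test (Benjamini-Hochberg adjusted p = 0.654), the other being Bcl2a1b (adjusted p = 0.229). This evenness held for TMM and DESeq2 scaling only, since library totals alone gave 34.9, 18.2 and 22.5 CPM. Without the GC and length trend, the tumour 1 difference of Bcl2 went from −0.06 to −0.78 on the log2 scale. Bcl2l2, which encodes Bcl-w, went the other way from Bcl2l1, at 36.2, 13.6 and 14.1 CPM. Its annotated transcript shares 12.8% of its 50-base stretches with the read-through gene Gm20521, which had 46, 0 and 0 counts.

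Scaled for transcript length (CPM per kb of the longest annotated transcript), Bcl2l1 stood first among the pro-survival genes and Mcl1 next in each tumour. Bcl2l1 was at 76.7 ± 31.3 CPM per kb (SD, n = 3), Mcl1 at 40.7 ± 8.61, Bcl2l2 at 5.58 ± 3.39 and Bcl2 at 3.38 ± 0.119 CPM per kb. Within tumours 1, 2 and 3, the level of Bcl2l1 per kb was 12.7, 29.1 and 25.7 times that of Bcl2. The level of Mcl1 per kb was 9.65, 13.9 and 12.4 times that of Bcl2, and 0.76, 0.478 and 0.481 times that of Bcl2l1. The last difference, on the log2 scale, was −0.84 ± 0.38 (SD, n = 3), with Mcl1 below Bcl2l1 in 3 of 3 tumours. A two-sided exact sign-flip permutation test on 3 tumours cannot give a p below 0.25, so these orders rest on their sign in 3 of 3 tumours. Bcl2l2 per kb was at 9.497, 3.553 and 3.7 in tumours 1, 2 and 3, against 3.279, 3.509 and 3.341 for Bcl2. Bcl2l2 was thus above Bcl2 in 3 of 3 tumours, but the levels were close in tumours 2 and 3. The gap between the means of Bcl2l2 and Bcl2 was smaller than the SD of Bcl2l2.

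The mouse carries several copies of Bcl2a1, a pro-survival gene of leukocytes, on chromosome 9. The copies differ at few positions, which bears on how reads of 50 bases are shared out among them. Given are bases 1 to 120 of the coding sequence of the 3 detected copies, from the GENCODE M21 transcripts of GRCm38, with capitals at the positions where the copies differ.
Bcl2a1a: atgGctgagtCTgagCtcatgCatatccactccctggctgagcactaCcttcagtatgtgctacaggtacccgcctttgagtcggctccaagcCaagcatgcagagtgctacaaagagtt
Bcl2a1b: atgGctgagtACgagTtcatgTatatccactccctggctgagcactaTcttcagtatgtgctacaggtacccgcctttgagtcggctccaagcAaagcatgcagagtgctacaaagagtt
Bcl2a1d: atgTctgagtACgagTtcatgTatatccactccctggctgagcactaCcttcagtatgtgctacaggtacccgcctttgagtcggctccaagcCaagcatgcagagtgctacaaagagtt
This stretch holds 7 of the 12 variable positions in 516 coding bases. Bcl2a1a and Bcl2a1b are 97.9% identical over the coding sequence, Bcl2a1a and Bcl2a1d 98.6%, and Bcl2a1b and Bcl2a1d 98.8%. Of the 50-base stretches of each transcript, which is the read length, 69.0% (Bcl2a1a), 79.2% (Bcl2a1b) and 79.5% (Bcl2a1d) also occur in another gene. Their summed level was 9.56, 4.599 and 9.98 CPM in tumours 1, 2 and 3, from 661, 37 and 157 counts, so that tumour 2 was lowest. Singly, Bcl2a1b was at 4.58, 3.60 and 5.21 CPM, Bcl2a1a had 77, 5 and 44 counts, and Bcl2a1d had 267, 3 and 31 counts. The fourth copy, Bcl2a1c, had 0 counts throughout; with 3 counts as the limit, levels of up to 0.0434, 0.373 and 0.191 CPM remain possible (counting error only). Bcl2l10 had 1, 3 and 3 counts.

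Bax and Bok, 2 of the 3 pore formers, were lowest in tumour 1. Bax (chromosome 7, 45461697 to 45466898) was at 65.5, 142 and 157 CPM, that is, 2.17-fold and 2.40-fold higher in tumours 2 and 3. The Bax difference of tumour 1 was −1.19 on the log2 scale and became −0.34 with library totals alone and 0.41 once the GC and length trend was removed. Its longest transcript has a GC content of 63.5% and 1100 bases. Bok (chromosome 1, 93685660 to 93695764), a pore former that acts apart from the other pair, was at 25.2, 90.0 and 88.2 CPM, and its difference of −1.82 became −0.97 with library totals alone and −0.56 without the trend. Bak1 (chromosome 17, 27019810 to 27029009) was at 56.4, 47.0 and 58.1 CPM, or 53.8 ± 5.99 CPM (SD, n = 3). These close levels depend on the scaling, since library totals alone gave 83.5, 33.9 and 54.4 CPM, and the difference of tumour 1 went from 0.11 to 0.76 without the GC and length trend. Bak1 shares 18.2% of its 50-base stretches with the overlapping gene Ggnbp1 on the other strand, which had 506, 473 and 460 counts. Per kb, Bax exceeded Bak1 by 2.52, 6.57 and 5.88 times in tumours 1, 2 and 3, and exceeded Bcl2 by 18.1, 36.8 and 42.7 times. The Bax to Bak1 ratio was thus lowest in tumour 1, where Bax was lowest. Without the GC and length trend, the tumour 1 differences of Bax (0.41) and Bak1 (0.76) lay closer together. Bax shares 13.8% of its 50-base stretches with the overlapping gene Gm45808, for which there was no count.

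Of the 8 BH3-only genes, 7 passed the filter, and they went both ways in tumour 1. Bad (chromosome 19, 6941861 to 6951899), which binds Bcl2 and Bcl-xL and is silenced by survival-signal phosphorylation, was at 49.7, 256 and 229 CPM, or 5.15-fold and 4.6-fold higher in tumours 2 and 3. It was the 1 gene of the set 4-fold below both others in tumour 1, a difference of −2.28 on the log2 scale that was −1.43 with library totals alone and −1.39 after removal of the GC and length trend, no longer 4-fold in either. Bad overlaps Gpr137 on the other strand by 620 bases, and Gpr137 had 2924, 478 and 1012 counts. The longest Bad transcript shares no 50-base stretch with annotated transcripts of another gene on either strand. Per kb, Bad had the highest mean level of the 46 genes, at 116 ± 73.1 CPM per kb (SD, n = 3), ahead of Bax at 111 ± 44.8. The spread between tumours exceeds that gap. Bbc3 (chromosome 7, 16308393 to 16318205), which encodes the p53-induced protein PUMA, was the opposite case, at 13.8, 2.24 and 2.80 CPM. The exact 95% counting intervals were 12.97 to 14.7 CPM for the 957 counts of tumour 1 and 1.33 to 3.54 CPM for the 18 counts of tumour 2. Tumour 1 was 6.18-fold and 4.95-fold higher, and the difference grew from 2.44 to 3.94 on the log2 scale without the GC and length trend. The Bbc3 transcript has a GC content of 65.2%.

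Pmaip1, which encodes the Mcl1 antagonist Noxa and is also a p53 target, was at 3.35, 17.5 and 7.88 CPM. It was lowest in tumour 1, and it also differed within the lane, by 2.22-fold between tumours 2 and 3. Bbc3 and Pmaip1, both textbook p53 targets, therefore stood in opposite order in tumour 1. Bid, which links death receptors to mitochondria once cleaved by Casp8, was at 41.5, 28.5 and 60.3 CPM and was lowest in tumour 2, 2.12-fold below tumour 3 of the same lane. It overlaps Bcl2l13 on the other strand, and 24.5% of its 50-base stretches also lie in Bcl2l13 transcripts. Bcl2l11, which encodes Bim, was at 32.8, 20.01 and 24.7 CPM, the cytoskeleton-linked Bmf at 12.8, 9.32 and 8.20 CPM and Bik at 6.25, 4.85 and 3.69 CPM, each highest in tumour 1 by less than 2-fold. Without the GC and length trend, the tumour 1 difference of Bcl2l11 went from 0.56 to −0.007 on the log2 scale, and that of Bik grew from 0.556 to 1.72. Hrk had 4, 0 and 0 counts.

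**Figure D3:**
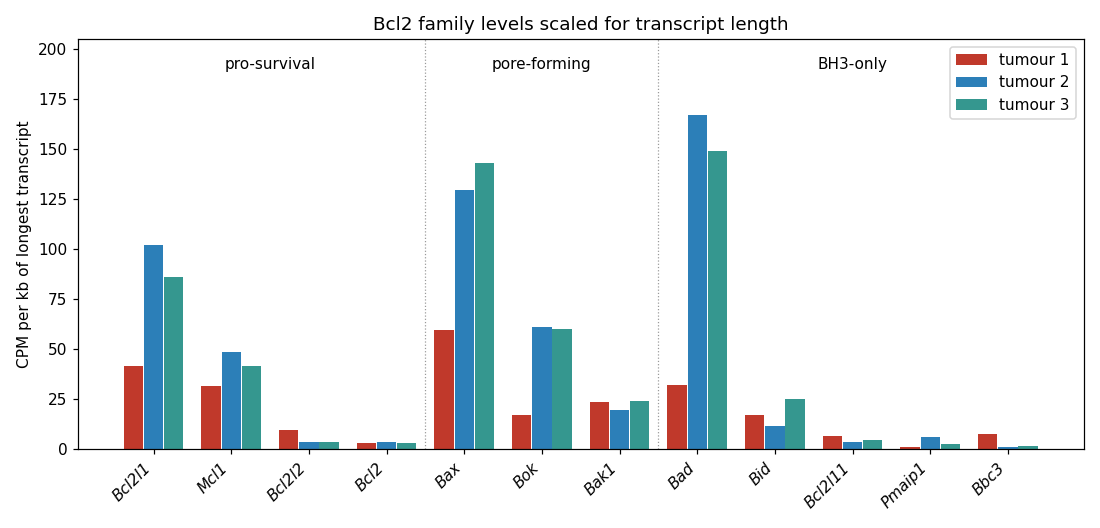
Level per kb of the longest transcript for pro-survival, pore-forming and BH3-only genes, as bars for tumours 1, 2 and 3 from an axis that starts at 0. Bad ranges from 32.4 to 167 and Bax from 59.6 to 143 CPM per kb, with tumour 1 lowest for both, while Bcl2 stays between 3.28 and 3.51.

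The initiator caspases Casp2, Casp8 and Casp9 were highest in tumour 1. Casp2 (chromosome 6, 42264985 to 42282508), an initiator tied to DNA damage and to the PIDDosome, was at 37.3, 6.84 and 8.33 CPM in tumours 1, 2 and 3, with exact counting intervals of 35.8 to 38.7, 5.15 to 8.90 and 6.96 to 9.88 CPM. It was 5.45-fold and 4.47-fold higher and is the second gene past 4-fold against both others, and without the GC and length trend its difference went from 2.29 to 1.89. Casp9 (chromosome 4, 141793612 to 141815976), the apoptosome caspase, was at 18.1, 6.09 and 4.77 CPM. Casp8 (chromosome 1, 58795374 to 58847503), the death receptor caspase, was at 22.0, 11.7 and 19.8 CPM, with tumour 3 close to tumour 1. The summed level of the 3 initiators was 77.4, 24.6 and 32.9 CPM.

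Casp6 (chromosome 3, 129901425 to 129914103), a caspase that cleaves lamins, had another order, at 18.9, 39.5 and 25.7 CPM, with tumour 1 lowest under TMM and between the others with library totals alone (28.0, 28.5 and 24.1 CPM). Casp2 shares no 50-base stretch with transcripts of another gene.

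The 3 genes past 4-fold in tumour 1 have different start regions, which are printed with capitals at every match to the motifs searched on both strands. They run from 250 bases before to 50 after the annotated start (RefSeq, GRCm38), 5′ to 3′ on the strand of the gene: chr6:42264735-42265034 for Casp2, chr7:16309333-16309632 for the most upstream of 3 starts of Bbc3 and chr19:6941611-6941910 for the more upstream of 2 starts of Bad, all on the plus strand.
Casp2: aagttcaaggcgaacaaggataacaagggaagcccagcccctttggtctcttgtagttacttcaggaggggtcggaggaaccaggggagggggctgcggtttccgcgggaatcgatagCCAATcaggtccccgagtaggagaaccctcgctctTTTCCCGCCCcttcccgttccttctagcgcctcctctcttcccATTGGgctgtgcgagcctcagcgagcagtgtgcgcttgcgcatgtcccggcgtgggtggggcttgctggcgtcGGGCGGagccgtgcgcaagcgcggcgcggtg
Bbc3: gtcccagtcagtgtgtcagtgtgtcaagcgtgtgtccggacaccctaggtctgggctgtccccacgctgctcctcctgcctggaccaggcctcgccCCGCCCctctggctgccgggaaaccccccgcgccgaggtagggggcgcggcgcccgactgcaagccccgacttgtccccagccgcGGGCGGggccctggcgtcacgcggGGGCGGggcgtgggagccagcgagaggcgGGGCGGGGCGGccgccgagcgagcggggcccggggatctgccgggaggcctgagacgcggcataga
Bad: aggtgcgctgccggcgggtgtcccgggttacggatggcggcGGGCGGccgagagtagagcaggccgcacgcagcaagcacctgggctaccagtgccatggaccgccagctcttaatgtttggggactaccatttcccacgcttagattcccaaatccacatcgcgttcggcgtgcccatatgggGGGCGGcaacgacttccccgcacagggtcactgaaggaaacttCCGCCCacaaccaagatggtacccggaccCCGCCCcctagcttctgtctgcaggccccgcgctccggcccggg
Casp2 held 2 GC boxes (GGGCGG), 2 CCAAT boxes (CCAAT) and 1 E2F-type motif (TTTCCCGC), which overlaps a GC box. Bbc3 held 5 GC boxes and Bad 4, and neither held any of the other motifs. The Bbc3 window lies inside the GENCODE span of the gene, which begins at 16308393. The bases before that span were not searched. None of the 3 windows held a TATA box (TATAAA), an E-box of the type CACGTG, a cyclic AMP response motif (TGACGTCA) or the p53 consensus decamer. Among 26794 promoter windows of all genes, GGGCGG occurred in 36.2%, CCAAT in 38.2%, TTTCCCGC in 1.12%, TATAAA in 14.2%, CACGTG in 7.30%, TGACGTCA in 1.87% and the p53 decamer in 8.35%. A window was found for 40 of the 46 genes, of which 27 (67.5%) held a GC box and 1 (Bax) the p53 decamer. A GC box was held by 5 of 6 windows of genes at least 2-fold above in tumour 1 and by 3 of 6 of those at least 2-fold below. These are matches of letters and not sites of binding.

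Genes of the apoptosome went in different directions. Cycs, which encodes cytochrome c, was at 68.2, 22.0 and 54.3 CPM and was lowest in tumour 2, by 2.47-fold against tumour 3 of the same lane. Its value is uncertain, since 28.5% of its 50-base stretches recur in 76 other annotated genes, led by the pseudogene Gm10053. Apaf1 (chromosome 10, 90989311 to 91082770), the scaffold, was lowest in tumour 1, at 13.6, 29.0 and 22.3 CPM, a gap that library totals alone closed (20.04, 20.9 and 20.9 CPM). Removal of the GC and length trend widened the Apaf1 difference of tumour 1 from −0.905 to −1.64 on the log2 scale. Diablo, which encodes Smac and relieves caspases of Xiap, was at 40.5, 33.1 and 38.6 CPM, or 37.4 ± 3.87 CPM (SD, n = 3), against 59.9, 23.9 and 36.2 CPM with library totals alone. Its longest transcript shares 68.9% of its 50-base stretches with B3gnt4, Gm49027 and others.

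The inhibitors of apoptosis split in a similar way. Xiap (chromosome X, 42059679 to 42109656), a direct inhibitor of Casp9, was at 31.6, 12.6 and 13.5 CPM, that is, 2.52-fold and 2.34-fold higher in tumour 1. Its transcript is long (6834 bases) and of low GC content (36.8%), and the difference of 1.28 was 0.55 without that trend. Birc6, a giant ubiquitin ligase, was at 47.0, 17.7 and 24.1 CPM. Birc2 and Birc3, neighbours on chromosome 9 (7818227 to 7837064 and 7848699 to 7873186) that encode the ubiquitin ligases of Ripk1, were lowest in tumour 1 under TMM, at 15.1, 27.6 and 26.3 CPM and at 10.99, 15.04 and 13.2 CPM. With library totals alone tumour 1 lay between the others for Birc2 (22.3, 19.9 and 24.6 CPM) and was highest for Birc3 (16.3, 10.9 and 12.3 CPM). Per kb, Birc2 was 1.20, 1.60 and 1.74 times Birc3. Cflar, which encodes the Casp8 decoy c-FLIP and lies just before Casp8 on chromosome 1 (58711508 to 58758884), was at 27.4, 44.3 and 32.6 CPM, with tumour 1 lowest under TMM and highest with library totals alone. Cflar per kb was 0.49, 1.48 and 0.646 times Casp8, so that Cflar exceeded Casp8 in tumour 2 alone, and the mean difference of −0.36 ± 0.83 (SD, n = 3) is within the spread of the tumours.

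The inflammatory caspases Casp1 and Casp4 were lowest in tumour 2. Casp1, Casp4 and Casp12 lie together on chromosome 9 (5298517 to 5307265, 5308828 to 5336783 and 5345430 to 5373032). Casp1, which matures interleukin precursors, was at 13.6, 3.98 and 9.22 CPM, and tumour 3 was 2.32-fold above tumour 2 (exact 95% counting interval 1.57 to 3.51). Casp4, a sensor of bacterial lipopolysaccharide, had 213, 2 and 70 counts and did not pass the filter. Tumour 3 was 17.9-fold above tumour 2 for Casp4, with a counting interval of 4.77 to 151 that covers counting error only. Casp12, in contrast, was at 7.23, 8.82 and 12.4 CPM. Casp14, a caspase of the epidermis, had 3, 0 and 0 counts. Markers of leukocytes did not share 1 order over the tumours. Of the 4 general leukocyte markers, summed at 139, 1338 and 815 CPM, Coro1a (33.5, 867 and 460 CPM) and Laptm5 (78.6, 398 and 275 CPM) were highest in tumour 2, Ptprc was close in tumours 2 and 3 (17.3, 27.1 and 26.95 CPM) and Cd52 was highest in tumour 3 (10.05, 46.98 and 52.9 CPM). The macrophage marker Cd68 was lowest in tumour 2 (24.5, 18.3 and 22.8 CPM), and Adgre1 was close in tumours 2 and 3 (13.8, 11.6 and 11.95 CPM). Csf1r (82.5, 229.8 and 203 CPM), Mrc1 (45.4, 240.6 and 134.4 CPM) and C1qa (160.8, 2426 and 1369 CPM), also macrophage markers, were highest in tumour 2. Of the neutrophil markers, S100a8 was at 6.27, 1.62 and 13.9 CPM and S100a9 at 13.5, 4.97 and 17.4 CPM, both lowest in tumour 2. Csf3r (13.5, 22.99 and 8.71 CPM) and Clec4d (1.53, 14.4 and 10.9 CPM) were highest there. Il1b (20.6, 2.86 and 3.24 CPM) and Cxcr2 (4.63, 0.87 and 1.08 CPM) were highest in tumour 1 and close in tumours 2 and 3. The sum of the 6 neutrophil markers was 60.0, 47.7 and 55.2 CPM. The part of these cells in the result was not tested.

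**Figure D4:**
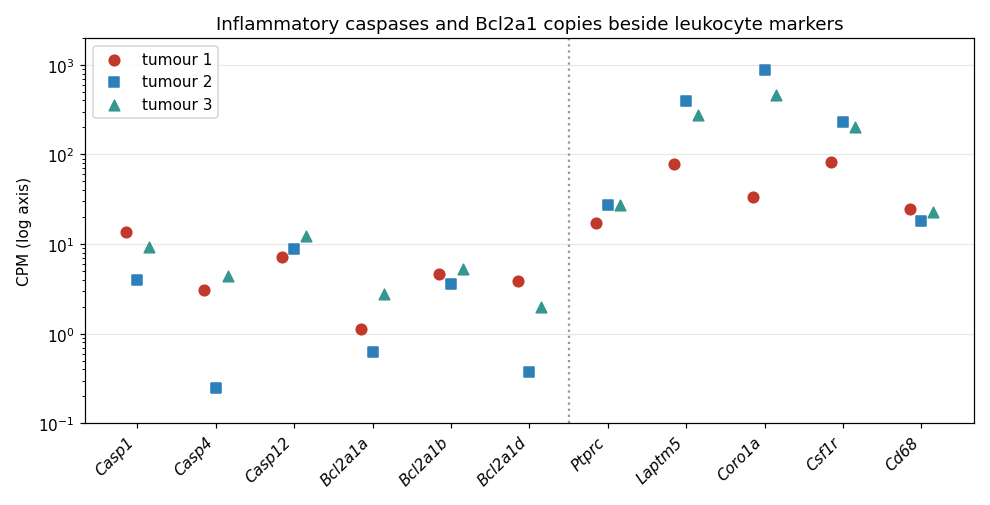
Level in CPM on a log axis of Casp1, Casp4, Casp12 and 3 Bcl2a1 copies (left of the dotted line) and of 5 leukocyte and macrophage markers (right) in each tumour. Tumour 2 (squares) is lowest for Casp1, Casp4 and the Bcl2a1 copies but highest for Laptm5, Coro1a and Csf1r.

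Among genes of necroptosis, a lytic death carried by Ripk1, Ripk3 and Mlkl, the executor and its kinase were lower in tumour 1. Mlkl (chromosome 8, 111311797 to 111338177), the membrane pore former, was at 9.14, 42.9 and 35.9 CPM, that is, 4.69-fold and 3.92-fold higher in tumours 2 and 3. Its difference of −2.09 on the log2 scale was −2.11 without the GC and length trend, −1.80 with counts thinned to the smallest library and −1.25 with library totals alone (13.5, 30.96 and 33.6 CPM). It passed 4-fold against both others with DESeq2 size factors or a filter at a mean CPM of 1, and in no other setting with all 3 tumours. Ripk3, which phosphorylates Mlkl, was at 9.15, 19.8 and 18.1 CPM, and with library totals alone at 13.5, 14.3 and 16.96 CPM. Ripk1, the upstream kinase, was highest in tumour 1, at 14.4, 4.72 and 8.71 CPM. Without the GC and length trend, the tumour 1 difference went from 1.16 to 0.39 for Ripk1 and from −1.04 to −0.55 for Ripk3. Ripk1 shares 7.19% of its 50-base stretches with the overlapping pseudogene Gm17084, which had 65, 258 and 310 counts. Gsdmd, the pore protein of pyroptosis cut by Casp1 and Casp4, was at 8.41, 5.59 and 10.9 CPM, lowest in tumour 2 as were Casp1 and Casp4. The remaining Bcl2-like genes, whose part in apoptosis is less settled, were at 38, 15.4 and 21.9 CPM for the mitophagy receptor Bcl2l13, at 15.5, 13.8 and 18.5 CPM for Bcl2l12, at 1.27, 3.73 and 6.42 CPM for Bcl2l14 and at 2.59, 0.870 and 0.763 CPM for Bcl2l15.

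Within lane 5 the set stood close to the background of all genes. None of the 39 genes differed 4-fold between tumours 2 and 3, in either direction (0.448 and 0.755% of all genes). At 2-fold, tumour 2 was above tumour 3 for 1 gene, Pmaip1 (2.56%; 7.39% of all genes), and below it for 4, among them Bid, Casp1 and Cycs (10.3%; 8.81% of all genes). Without tumour 1 the median standard deviation of log2 CPM of the set was 0.24, against 0.33 over all genes, and 25 of 38 genes (65.8%; 62% of all genes) differed beyond counting noise. Only filtered genes enter these counts. Without a filter, 3 of 45 genes were 4-fold apart between tumours 2 and 3 (10.8% of all genes), as were 3 of 42 at a mean CPM of at least 1 (4.98% of all genes).

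Of 58 further apoptosis-related symbols listed alongside the set, 56 had a row and 47 passed the filter. Tumour 1 was 4-fold above both others for 5 and 4-fold below both for 4, against 6.05 and 8.21% of all genes, and the remaining 38 were neither. With library totals alone the counts were 8 above and 0 below, against 16.2 and 3.6% of all genes. Above were Mdm2, the ubiquitin ligase of p53 (522 against 6.46 and 15.2 CPM), the outer membrane channel Vdac3 (275 against 29.5 and 47.4 CPM), Bag4 (53.8 against 4.10 and 7.12 CPM), Aifm1, a flavoprotein of mitochondria (31.2 against 4.72 and 6.42 CPM), and the NF-kB inhibitor Tnfaip3 (14.1 against 1.99 and 1.59 CPM). Below were Traf2, the adaptor that recruits Birc2 and Birc3 to the TNF receptor (41.4 against 364 and 216 CPM), Fadd, the adaptor of Casp8 (10.9 against 45.6 and 48.9 CPM), Tnf (2.95 against 12.4 and 12.01 CPM) and Naip5 (1.66 against 25.5 and 9.03 CPM). Casp8, unlike its adaptor Fadd, was not lowest in tumour 1 (22.0, 11.7 and 19.8 CPM), but tumour 3 was close to tumour 1. Without the GC and length trend, the tumour 1 difference of Casp8 went from 0.53 to 0.24 on the log2 scale. Trp53, which encodes p53, was at 77.3, 75.9 and 93.6 CPM. The highest of the list by mean level were Birc5, an inhibitor of apoptosis protein of mitosis (115, 515 and 446 CPM), Vdac2, which holds Bak at the membrane (189, 350 and 324 CPM), and Rbck1 of the linear ubiquitin ligase (159, 214 and 279 CPM).

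Positions were set against the 5 nearest genes past the filter on each side of the 3 genes that were 4-fold apart in tumour 1. Of 30 such neighbours, 6 (20%) lay 4-fold apart in the direction of their gene, compared with 6.05% above and 8.21% below over all genes. Casp2 had 3 of 10 (Ssbp1, Epha1 and Tcaf2) above and 1 opposite, and Bbc3 had 1 of 10 (Arhgap35) above and 3 opposite. Bad had 2 of 10 (Ccdc88b and Ppp1r14b) below and 0 opposite. The 30 neighbours come from only 3 places in the genome. Without the GC and length trend, Casp2 and Bad were themselves no longer 4-fold apart. A link of these differences with position was not tested.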

How the data were processed

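RNA was measured by paired-end sequencing (reads of 50 bases) of mRNA libraries from 3 untreated tumours. For each symbol the authors gave the estimated count that Salmon assigned to it (per the file headers), with no scaling for depth or length. STAR, Picard, SAMtools and the mm10 build are named in the submitters' processing notes. Tool versions, the annotation release and whether counting used strand: not given in the sources used here, so values of genes that overlap on opposite strands are uncertain.

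Counts were rounded and filtered with filterByExpr of edgeR 4.0.16 (R 4.3.3; minimum count 10, minimum total 15), which left 12710 genes. Library totals were scaled with TMM factors (1.48, 0.722 and 0.936). CPM were computed on these scaled totals, with a prior count of 2 for log2 CPM. With 1 tumour on a side there is no replicate check: a gene was called apart at 4-fold or more against both others. Chi-square p-values were Benjamini-Hochberg adjusted at 0.05 over all genes. The chi-square p-values measure only how far the counts of these libraries depart from counting noise. SDs measure only the spread between these samples. Both kinds of difference may be technical. Lengths (longest transcript), GC contents, positions and shared 50-base stretches came from GENCODE M21 (GRCm38, that is mm10), which held all 46 symbols and 97.1% of the genes past the filter. Promoter windows came from RefSeq. Alternatives were DESeq2 1.42.0 size factors, library totals, removal of muscle markers and Rn18s-rs5, other filters, prior counts, thresholds, thinned counts, a GC and length correction and leaving out each tumour.

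The genes, lists, pairs and rules were chosen with earlier results of these data known. The named genes were all members, of which 2 enter the counts but are not reported here by name or value, and of the further list those apart in a tumour or among the 3 highest. Trp53 and the members' overlapping genes were named after their values were seen.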

Additional observations from a re-analysis of the deposited data

How the results depend on the processing

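The set had 2 genes 4-fold above both others in tumour 1 and 1 below; the share of all genes follows each count in parentheses. The count above was 7 with library totals alone (16.2%), 1 with the GC and length trend removed (5.48%), 8 at 2-fold (22.1%) and 0 at 8-fold (1.31%). The count below was 2 with DESeq2 size factors (8.9%) or at a mean CPM of at least 1 (10.6%), 7 at 2-fold (20.7%), and 0 with library totals alone (3.6%), with the trend removed (6.38%) or at 8-fold (2.7%). In tumour 2, compared with 0, the count above was 1 at 2-fold (5.43%), and the count below was 2 without a filter (3.6%) or at a mean CPM of at least 1 (3.23%) and 3 at 2-fold (7.14%). With 1 tumour left out, so that a gene was set against a single tumour, tumour 1 had 2 above without tumour 2 (8.75%) and 4 without tumour 3 (14.3%), and from 3 to 3 below (9.54 and 13.6%). Tumour 2 then had from 0 (0.46%) to 3 above (13.6%) and from 0 (0.628%) to 4 below (14.3%), and tumour 3 from 0 (0.628%) to 3 above (9.54%) and from 0 (0.46%) to 2 below (8.75%), the lower ends without tumour 1. Genes 4-fold apart between tumours 2 and 3 numbered 3, compared with 0, without a filter (10.8%) or at a mean CPM of at least 1 (4.98%). The median SD of log2 CPM of the set ranged from 0.242 without tumour 1 (0.33 over all genes) to 0.787 without tumour 3 (0.895). Of the further apoptosis genes, 8 were above (16.2%) and 0 below (3.6%) in tumour 1 with library totals alone.

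Taken as log2 CPM with no length, the mean differences were −0.43 for Mcl1 minus Bcl2l1, 2.92 for Bcl2l1 minus Bcl2, 2.49 for Mcl1 minus Bcl2, 1.08 for Bax minus Bak1 and 2.23 for Bax minus Bcl2, and Cflar minus Casp8 turned to 0.98. The cause of these changes was not tested beyond what the settings themselves do. The depth of tumour 2 limits low genes, since 3 counts there are 0.373 CPM. No paired analysis was possible because all 3 tumours form 1 group.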
